A study of Homo sapiens with 24 samples.

Results

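The RBMS family of RNA-binding proteins has 3 members in the human genome, RBMS1, RBMS2 and RBMS3, and their transcripts were followed in all 24 libraries of the series. The members were taken by symbol, without use of their values, and each of the 3 had a row among the 38849 genes of the deposited table. All 3 were among the 12096 genes with a mean of at least 10 normalized counts over the libraries, so that no member was lost to the filter on low values. The cells were HMLE, an immortalized human mammary epithelial line, made to express either RBMS3 (HMLE/RBMS3, called RBMS3 cells here) or the control LacZ (HMLE/LacZ, LacZ cells). Both lines were given actinomycin D, which blocks transcription, at 10 µg/mL for 0, 90, 180 or 360 min. Each line and time has 3 libraries. The library method, QuantSeq, sequences from the 3′ ends of polyadenylated transcripts. The labels name neither the construct's promoter nor its 3′ end, and leave it unsaid whether a line is 1 clone and whether libraries of 1 group are separate cultures. The p-values therefore measure spread between libraries that may be only technical. The study's question was which transcripts RBMS3 makes more or less stable.

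RBMS proteins hold a pair of RNA recognition motifs, bind single-stranded nucleic acids rich in A and U, and act mostly on the 3′ untranslated regions of mRNAs. RBMS1 was first described as a protein that binds single-stranded DNA near the MYC gene. RBMS2 is a close relative of RBMS1, and RBMS3 is known from connective tissue cells and as a binder of PRRX1 mRNA. The family is known to change the stability or translation of its target mRNAs, and proteins of this kind can in principle bind their own mRNAs.

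The A- and U-rich element ATATA, as DNA letters, is the short core that RBMS proteins are known to prefer. One stretch from the 3′ end of each member's leading transcript is given below because the library method reads that end and because the element is found there. The letters come from the GENCODE 29 transcripts of build GRCh38, are written 5′ to 3′ on the transcript's strand, and have the element in capitals. The element was chosen with the data at hand, and only the transcript strand was searched.

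RBMS1 (RBMS1-202, chr2:160273122-160273151, minus strand): agtacATATAagataattcactgttattaa
RBMS2 (RBMS2-201, chr12:56596143-56596172, plus strand): ccacatttggttATATAaaaagtccctttt
RBMS3 (RBMS3-205, chr3:30009873-30009902, plus strand): gttatctcttcATATATAaaaaaataagtt

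Within the last 1000 bases of these transcripts the element, with overlapping copies counted, stood 1 time in RBMS1, 3 times in RBMS2 and 4 times in RBMS3. Of the longest coding transcripts of 10751 tested genes, 57.9% held at least 1 copy, 21.8% at least 3 and 13.2% at least 4. The RBMS3 stretch holds 2 overlapping copies. The RBMS2 stretch ends 24 bases before the annotated end of its transcript, the RBMS3 stretch 489 bases and the RBMS1 stretch 970 bases before theirs. A match is a description of the letters and not of binding.

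The normalized counts of a library summed to 6638187 to 8080428, and Pearson's r across genes between libraries of the same group was 0.937 to 0.955 except for LacZ replicate 2 at 0 min, which stood at 0.909 and 0.911 to its group. That library also stood apart in single transcripts: MYC was 51.0 in it against 246 and 289 in the others of its group, and SDCBP 127 against 807 and 772. The averaged line differences of the members, the RBMS1 difference at 0 min and the slope counts of the lists are also given without it. Some other values of LacZ cells at 0 min are given only with it. Epithelial transcripts, which the label of the line implies, were mixed in RBMS3 cells. EPCAM, an epithelial adhesion molecule, was 0 to 13.6 in the RBMS3 libraries and 1687 to 2263 in the LacZ libraries. Keratins stayed present in RBMS3 cells. KRT5 at 0 min averaged 2652 in RBMS3 cells and 2702 in LacZ cells, where replicate 2 was at 1503 against 3212 and 3392. At the later times KRT5 was 664 to 1122 in RBMS3 cells and 3521 to 4784 in LacZ cells. The summed level of 8 epithelial markers was 3007 to 10827 in RBMS3 cells and 13383 to 18391 in LacZ cells, and that of 6 mesenchymal markers was 37771 to 50818 in RBMS3 cells and 7417 to 10222 in LacZ cells. The RBMS3 libraries at 0 min stood apart from the later RBMS3 libraries in basal keratins: KRT14 was 5902 to 6168 at 0 min and 723 to 1198 at the later times, against 2133 to 3053 at 0 min and 2356 to 3557 at the later times in LacZ cells. Of the leukocyte, endothelial and adipocyte markers, CD3E, CDH5 and PLIN1 were at 0 in every library. The lines thus differ in far more than RBMS3, and what part of a line difference goes with RBMS3 itself cannot be told apart in this design. In bulk RNA, fewer cells with a transcript and less of it per cell cannot be told apart either. All values are shares of a library, since total RNA was not measured.

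RBMS1 was the most abundant of the family in both lines. Per length, as TPM of the 12 libraries whose transcript files were used, RBMS1 was at 12.1 to 32.6, RBMS2 at 1.23 to 1.88 and RBMS3 at 0.674 to 2.07. RBMS1 was thus above both relatives in each of these libraries, while the ranges of RBMS2 and RBMS3 overlapped. In RBMS3 cells the order of RBMS2 and RBMS3 by TPM was not the same in every library, and the 2 did not differ beyond their spread. In LacZ cells at 0 min RBMS2 was 1.60 ± 0.11 TPM and RBMS3 0.835 ± 0.18 TPM (SD, n = 3), with no overlap. Because QuantSeq reads 1 end of a molecule, a value divided by length is itself only an approximation.

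RBMS1 was higher in RBMS3 cells by normalized count, a value that did not follow its CPM in every library, as given below. Its normalized counts in the RBMS3 libraries read 1954, 1471 and 1735 at 0 min, 1321, 1822 and 1297 after 90 min, 1794, 1279 and 1697 after 180 min, and 1716, 1043 and 1353 after 360 min. In the LacZ libraries they were 1021, 754 and 1394 at 0 min, 1287, 931 and 1535 after 90 min, 949.8, 801 and 1205 after 180 min, and 785, 792 and 850.4 after 360 min. The lines did not overlap at 0, 180 and 360 min and overlapped at 90 min. Of all tested genes, 44.8% did not overlap at 0 min, 46.6% at 90 min, 46.6% at 180 min and 48.7% at 360 min. The 3 LacZ libraries at 360 min lay within 4.43% (coefficient of variation), whereas the RBMS1 values of the other groups varied by 14.1% to 30.4%.

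RBMS2 was lower in RBMS3 cells before the drug. In RBMS3 cells it stood at 205, 160.0 and 157 at 0 min, 200.3, 288 and 245 after 90 min, 265, 278 and 288 after 180 min, and 356, 311 and 288 after 360 min. In LacZ cells it stood at 257, 253 and 241 at 0 min, 362, 371 and 259.9 after 90 min, 253, 336 and 347 after 180 min, and 346, 396 and 319 after 360 min. The lines did not overlap at 0 min and overlapped at each later time.

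The RBMS3 transcript was above its LacZ level at every time. In RBMS3 cells it averaged 272 ± 79.3 at 0 min, 209.7 ± 31.7 at 90 min, 193 ± 26.3 at 180 min and 211 ± 21.7 at 360 min (SD, n = 3). In LacZ cells the means were 97.7 ± 20.5 at 0 min, 79.7 ± 43.9 at 90 min, 61.3 ± 34.8 at 180 min and 105 ± 51.6 at 360 min. The lowest of the 12 RBMS3 libraries was at 174 and the highest of the 12 LacZ libraries at 165, and 6.08% of the tested genes had all 12 RBMS3 libraries above all 12 LacZ libraries. Within LacZ cells the transcript spanned 5.98-fold between libraries, against 2.06-fold in RBMS3 cells.

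**Figure D1:**
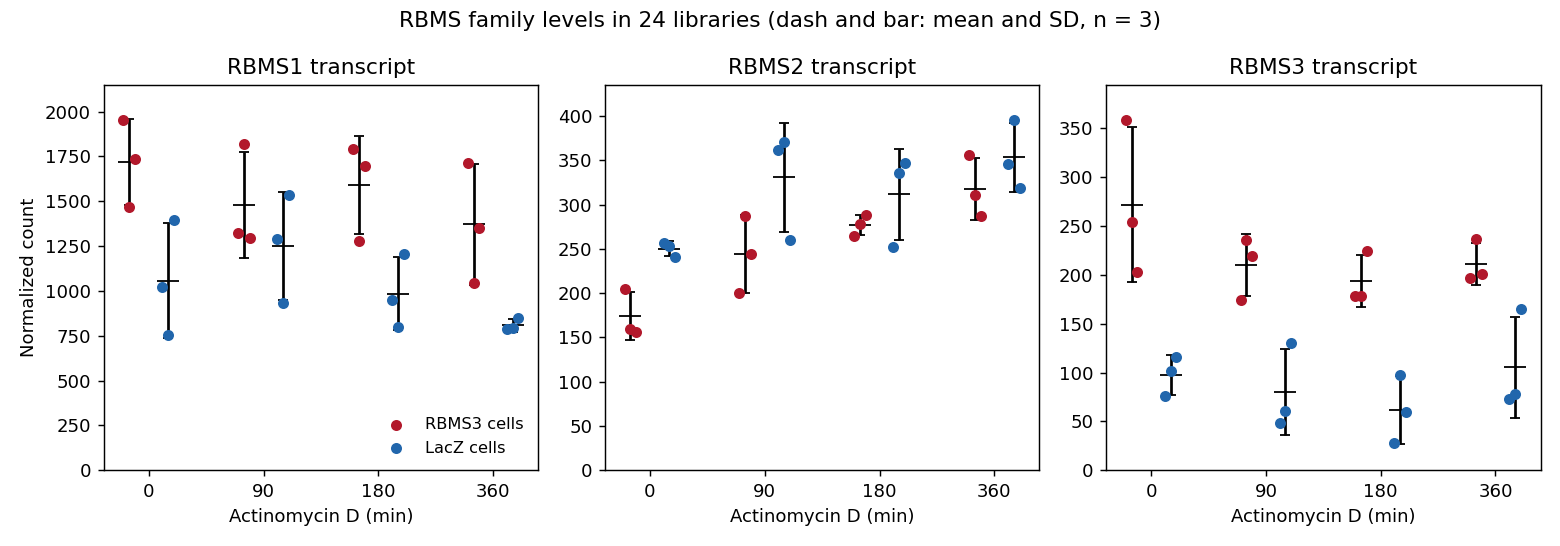
Normalized counts of RBMS1, RBMS2 and RBMS3 in each library against the time of actinomycin D, with RBMS3 cells in red to the left of LacZ cells in blue, and the mean and SD of 3 libraries as a dash and bar. RBMS1 and RBMS3 lie higher in RBMS3 cells, with overlap of RBMS1 at 90 min, and RBMS2 lies lower in RBMS3 cells at 0 min and overlaps later.

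Each line difference was tested with limma on log2(normalized count + 1), adjusted by Benjamini-Hochberg over the 12096 genes. Averaged over the 4 times, RBMS3 was higher in RBMS3 cells by 1.46 ± 0.20 (log2, SE; 2.76-fold; limma adjusted p = 1.79e-06). RBMS1 was higher by 0.60 ± 0.11 (1.52-fold; limma adjusted p = 0.00011), and RBMS2 differed by -0.32 ± 0.08 (0.802-fold; limma adjusted p = 0.00265). All 3 members passed at an adjusted p under 0.05, as did 57.6% of all genes, 27.9% of them higher and 29.7% lower, so that passing is not particular to the family. RBMS3 lay above 94.8% of all genes in this difference, RBMS1 above 82.7% and RBMS2 above 30.4%.

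Time by time, the RBMS3 difference passed at all 4 times, at 2.73-fold at 0 min, 2.84-fold at 90 min, 3.50-fold at 180 min and 2.14-fold at 360 min. The SE was 0.39 on the log2 scale, and the limma adjusted p was 0.00608, 0.00591, 0.00119 and 0.035 at those times. The 360 min call is the least firm, since it was lost when any of 5 of the 6 libraries was left out (1 by 1, 0.89 to 1.47, adjusted p up to 0.139), with no filter on low values (adjusted p = 0.0537), and on rescaling to ribosomal protein genes (0.89, adjusted p = 0.0831). These adjusted p-values stand against a background of 37.5% of all genes called at 0 min, 29.8% at 90 min, 33.1% at 180 min and 35.2% at 360 min.

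RBMS1 differed by 0.74 ± 0.23 at 0 min (limma adjusted p = 0.014), 0.70 ± 0.23 at 180 min (adjusted p = 0.0224) and 0.73 ± 0.23 at 360 min (adjusted p = 0.0157). At 90 min its difference was 0.25 ± 0.23 with a 95% interval of -0.22 to 0.73 (limma adjusted p = 0.445). The RBMS1 calls at single times are not firm. Rescaling libraries to equal ribosomal protein transcripts gave 0.38 at 0 min (limma adjusted p = 0.179), and a fit of the 6 libraries at 0 min alone gave an adjusted p of 0.0549. Without replicate 1 of the RBMS3 cells at 0 min the difference was 0.64 and without replicate 2 of the LacZ cells, the library that stands apart, it was 0.52, and neither passed. The 180 min call was lost without 4 of its 6 libraries (limma adjusted p up to 0.109), namely RBMS3 replicates 1 and 3 and LacZ replicates 1 and 2. The 360 min call was lost without RBMS3 replicate 1 (0.55, adjusted p = 0.0966). Without LacZ replicate 2 at 0 min the averaged difference was 0.55 (limma adjusted p = 0.000167) for RBMS1, -0.32 (adjusted p = 0.00358) for RBMS2 and 1.47 (adjusted p = 3.6e-06) for RBMS3.

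RBMS2 differed by -0.53 ± 0.17 at 0 min (limma adjusted p = 0.0159), -0.43 ± 0.17 at 90 min (adjusted p = 0.0559), -0.16 ± 0.17 at 180 min (adjusted p = 0.517) and -0.15 ± 0.17 at 360 min (adjusted p = 0.524). The 95% interval at 360 min was -0.50 to 0.20. The 0 min call was lost in a fit of those 6 libraries alone (adjusted p = 0.0726) and without replicate 2 or replicate 3 of the RBMS3 cells.

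**Figure D2:**
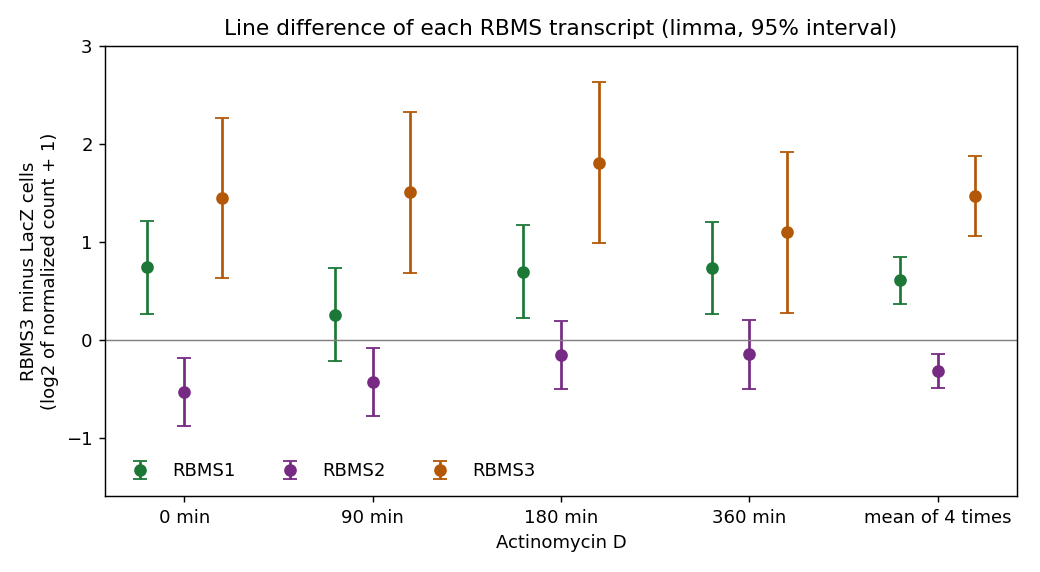
Line difference of each RBMS transcript, RBMS3 minus LacZ cells in log2(normalized count + 1), at each time and averaged over the times, with the 95% interval from limma. RBMS3 stays between 1.09 and 1.81, RBMS1 between 0.25 and 0.74, and RBMS2 lies at -0.53 at 0 min and -0.15 at 360 min.

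Under actinomycin D, RBMS2 rose in normalized count, a relative value, in both lines while the changes of RBMS1 and RBMS3 did not pass the test. At 360 min against 0 min, RBMS2 was higher by 0.87 ± 0.17 (log2, SE) in RBMS3 cells (1.83-fold; limma adjusted p = 0.000322) and by 0.49 ± 0.17 in LacZ cells (1.41-fold; adjusted p = 0.0325). Of all genes, 37.6% were called in this comparison in RBMS3 cells, 19.1% higher, and 28.5% in LacZ cells, 14.9% higher. RBMS2 lay above 92.2% of all genes in RBMS3 cells and above 80.6% in LacZ cells. At 180 min against 0 min the gain was 0.68 ± 0.17 in RBMS3 cells (limma adjusted p = 0.00477), a comparison in which 13.5% of genes were called higher, and 0.30 ± 0.17 in LacZ cells (adjusted p = 0.246).

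The RBMS2 gain depends on the scale. Equalising ribosomal protein transcripts moved the median of all genes by -0.39 in RBMS3 cells and by -0.55 in LacZ cells at 360 min, and left RBMS2 at 0.47 in RBMS3 cells, still called, but at -0.06 in LacZ cells, in the other direction. Set against the median of all genes, which takes out such shifts, RBMS2 was at 0.88 in RBMS3 cells and 0.46 in LacZ cells. After the rescaling it was at 0.87 in RBMS3 cells and 0.45 in LacZ cells. The LacZ call was also lost without any of 5 of the 6 libraries, with adjusted p up to 0.127, and in a fit of those 6 libraries alone (adjusted p = 0.0749). In RBMS3 cells RBMS2 was at 0.48 ± 0.17 at 90 min against 0 min (limma adjusted p = 0.0586) and at 0.39 ± 0.17 at 360 min against 90 min (adjusted p = 0.126), where 16% of all genes were called. The 0 min libraries of RBMS3 cells are those with the high KRT14 given above, and the part of that in the RBMS2 gain was not tested.

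RBMS1 at 360 min against 0 min was -0.35 ± 0.23 in RBMS3 cells (limma adjusted p = 0.248) and -0.34 ± 0.23 in LacZ cells (adjusted p = 0.287). Its 95% intervals were -0.82 to 0.13 and -0.81 to 0.13, so that they include both no change and a loss of 0.81. RBMS3 was at -0.33 ± 0.39 in RBMS3 cells (limma adjusted p = 0.552) and at 0.03 ± 0.39 in LacZ cells (adjusted p = 0.974). On the ribosomal protein scale both RBMS1 changes passed, at -0.75 and -0.90, with adjusted p of 0.0106 and 0.003, and RBMS3 in LacZ cells turned to -0.53 (adjusted p = 0.303). Relative to the median of all genes the RBMS1 changes were -0.34 in RBMS3 cells and -0.37 in LacZ cells, and after that rescaling -0.35 in RBMS3 cells and -0.38 in LacZ cells.

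Slopes were fitted per hour over 0, 1.5, 3 and 6 h, and the RBMS2 gain in LacZ cells did not pass by slope. RBMS2 rose by 0.14 ± 0.03 log2 per hour in RBMS3 cells (limma adjusted p = 0.000433; 36.6% of all genes called) and had a slope of 0.07 ± 0.03 in LacZ cells (adjusted p = 0.0641; 27.1% called). RBMS1 had slopes of -0.05 ± 0.04 in RBMS3 cells and -0.07 ± 0.04 in LacZ cells, and RBMS3 of -0.05 ± 0.06 in RBMS3 cells and 0.01 ± 0.06 in LacZ cells, none of which passed. The difference in slope, RBMS3 minus LacZ cells, passed for no member in limma, with adjusted p of 0.844 for RBMS1, 0.363 for RBMS2 and 0.792 for RBMS3, and unadjusted p of 0.0911 or more. The 95% intervals were -0.08 to 0.13 per hour for RBMS1, -0.01 to 0.15 for RBMS2 and -0.24 to 0.13 for RBMS3, and 5.18% of all genes were called. A missed threshold does not show that the transcripts decayed alike in both lines.

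**Figure D3:**
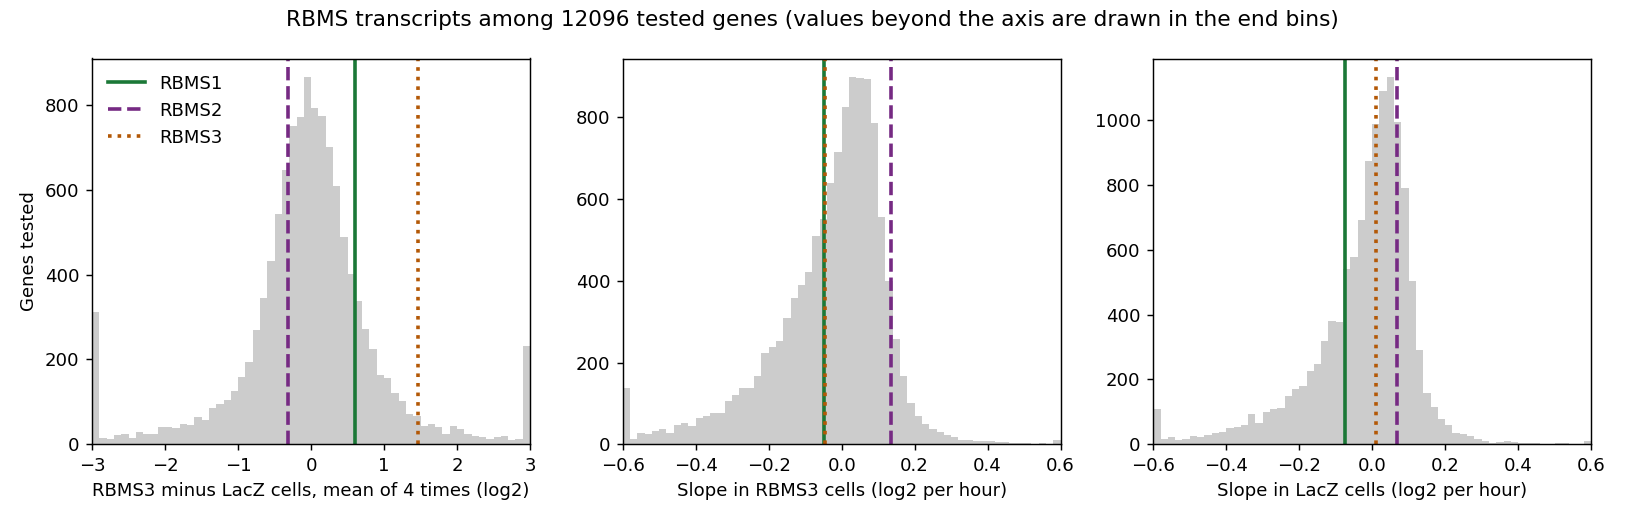
Histograms of 12096 tested genes for the line difference averaged over 4 times (log2, left), the slope in RBMS3 cells (log2 per hour, middle) and the slope in LacZ cells (right), with RBMS1 as a solid, RBMS2 as a dashed and RBMS3 as a dotted line. RBMS3 lies far right in the line difference at 1.46, and RBMS2 lies right of most genes in the slope of RBMS3 cells at 0.14 per hour.

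Ratios between the members were also taken. The ratio of RBMS1 to RBMS2 normalized counts, which rescaling a whole library leaves as it is, averaged 9.93 ± 1.01 at 0 min, 6.08 ± 0.68 at 90 min, 5.76 ± 1.09 at 180 min and 4.29 ± 0.81 at 360 min in RBMS3 cells (SD, n = 3). In LacZ cells it averaged 4.25 ± 1.43, 3.99 ± 1.74, 3.21 ± 0.72 and 2.31 ± 0.33 at the same times. The 3 RBMS3 libraries at 0 min, at 9.19 to 11.1, lay above all 21 others, whose highest was 6.77. The ratio of RBMS3 to RBMS2 averaged 1.54 ± 0.23 at 0 min, 0.862 ± 0.04 at 90 min, 0.697 ± 0.07 at 180 min and 0.67 ± 0.11 at 360 min in RBMS3 cells, against 0.392 ± 0.09, 0.266 ± 0.20, 0.19 ± 0.09 and 0.308 ± 0.18 in LacZ cells. In every one of the 12 RBMS3 libraries this ratio was at least 0.551, and in every one of the 12 LacZ libraries it was at most 0.516. In CPM of the 12 libraries with transcript files, RBMS1 to RBMS2 averaged 6.05 ± 0.82 at 90 min, 4.96 ± 0.28 at 180 min and 4.22 ± 0.61 at 360 min in RBMS3 cells, and 4.33 ± 0.16 in LacZ cells at 0 min. In CPM, RBMS3 to RBMS2 was 0.737 to 1.16 in those RBMS3 libraries and 0.249 to 0.405 in the LacZ libraries. These ratios depend on the source of the values, are not ratios of molecules, and were not tested. RBMS3 is the introduced gene, and how often other pairs of genes separate the libraries in this way was not counted.

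Transcript files, with estimated counts per transcript, were used for the 12 libraries in which the file's name and the sample it was recorded under named the same library: RBMS3 cells at 90, 180 and 360 min and LacZ cells at 0 min. In CPM, estimated reads scaled to equal library totals, RBMS1 was 199, 220.4 and 221 after 90 min, 189, 178 and 200.1 after 180 min and 159, 154 and 176 after 360 min in RBMS3 cells, and 174, 138 and 172 in LacZ cells at 0 min. The RBMS3 libraries at 90 min lay above those at 360 min without overlap, as 37.3% of 12364 genes did in either direction, and the RBMS3 libraries at 360 min overlapped the LacZ libraries at 0 min. In edgeR's quasi-likelihood test on these counts RBMS1 at 360 min against 90 min was -0.23 ± 0.07 (log2, SE; adjusted p = 0.0283; 24.2% of 12364 genes called, 12.7% lower), and DESeq2 gave -0.23 (adjusted p = 0.0145; 24.9% called). The same contrast on the table was -0.12 ± 0.23 (limma adjusted p = 0.796). The edgeR call was lost without replicate 2 (adjusted p = 0.0842) or replicate 3 (adjusted p = 0.0778) of the RBMS3 cells at 90 min. It was also lost without replicate 1 (adjusted p = 0.104) or replicate 2 (adjusted p = 0.114) of the RBMS3 cells at 360 min, and is not firm.

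RBMS2 was 35.9 ± 6.68 CPM at 90 min, 38.1 ± 1.54 at 180 min and 39 ± 5.03 at 360 min in RBMS3 cells, and 37.2 ± 4.11 in LacZ cells at 0 min (SD, n = 3). All 4 groups overlapped. At 360 min against 90 min in RBMS3 cells edgeR gave 0.28 ± 0.14 (adjusted p = 0.177). RBMS3 was 35 ± 3.77, 33.2 ± 0.03 and 32.7 ± 1.62 CPM at those times, and 11.1 ± 1.84 in LacZ cells at 0 min, with edgeR giving 0.06 ± 0.12 at 360 min against 90 min (adjusted p = 0.781).

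The table and the reads were not proportional for every member. Between libraries the ratio of normalized count to CPM spanned 1.98-fold for RBMS1, 1.41-fold for RBMS2 and 2.27-fold for RBMS3, against a median of 1.36-fold over 6464 genes with at least 50 reads in each library. RBMS1 varied by 5.93%, 5.83% and 7.29% within RBMS3 cells at 90, 180 and 360 min in CPM, but by 20.1%, 17.2% and 24.6% in normalized counts of the same libraries. The folds against LacZ cells at 0 min also differ. For RBMS1 in RBMS3 cells at 360 min the fold was 1.01 in CPM and 1.30 in normalized counts, and for RBMS3 it was 2.94 in CPM and 2.16 in normalized counts. In LacZ cells at 0 min, RBMS1 in replicates 1 and 3 was 174 and 172 CPM, but 18.5 and 25.5 TPM. The normalized counts of these replicates were 1021 and 1394, and so moved with TPM and not with CPM. What sets this factor over all libraries was not tested.

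**Figure D4:**
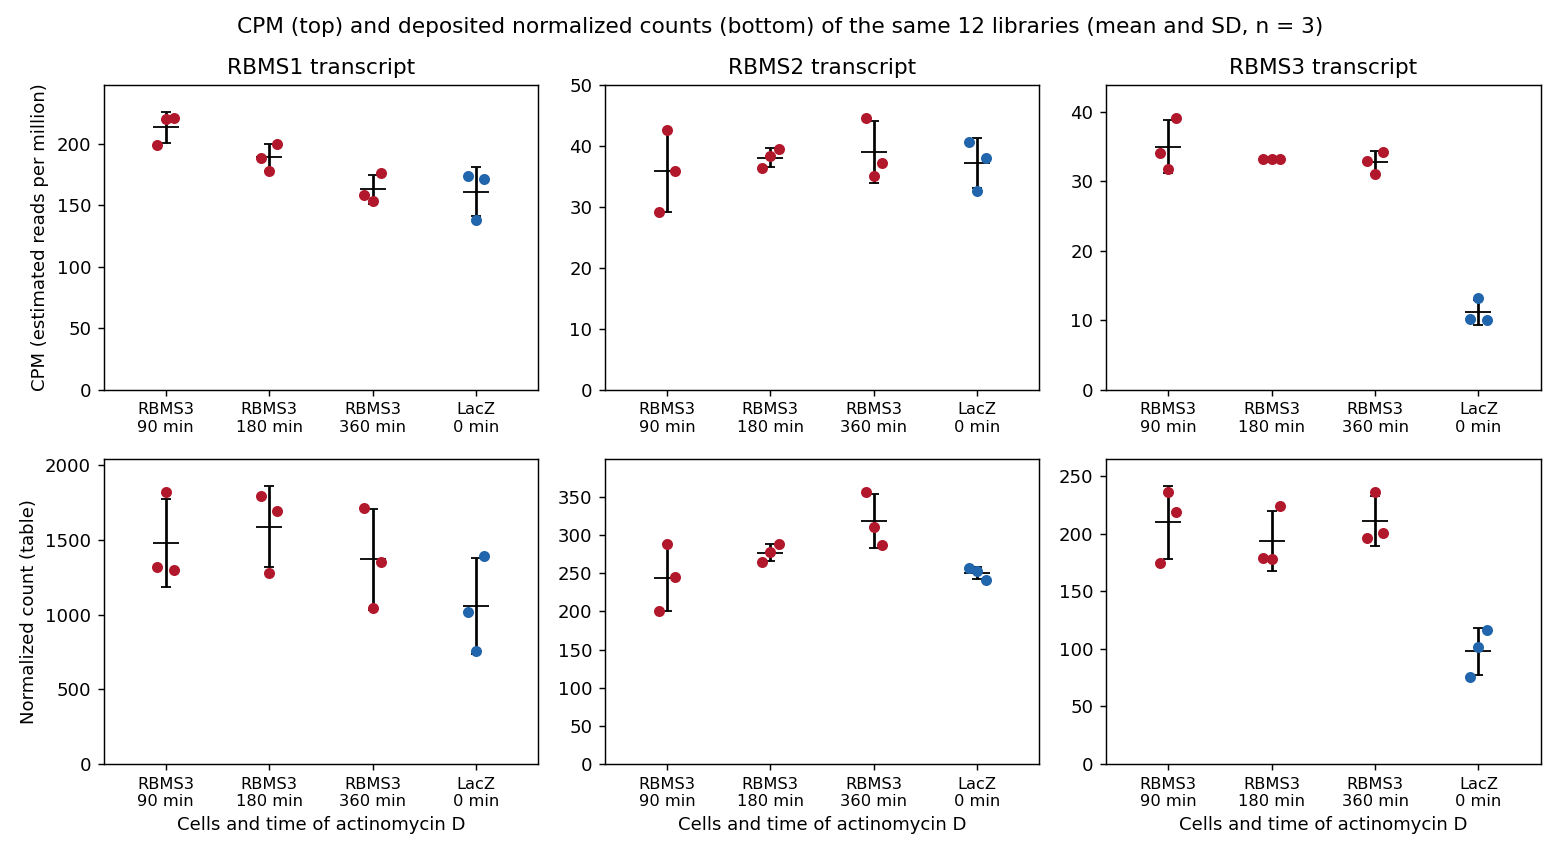
CPM from the estimated reads (top) and normalized counts of the table (bottom) of each RBMS transcript in the same 12 libraries, RBMS3 cells in red at 90, 180 and 360 min and LacZ cells in blue at 0 min, with mean and SD. In CPM the RBMS1 values of RBMS3 cells at 90 min lie above those at 360 min, whereas the normalized counts of these times overlap.

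The transcript files held 44 transcripts of the family, 15 of RBMS1, 9 of RBMS2 and 20 of RBMS3, of which 7, 3 and 7 had reads in any of the 12 libraries. RBMS1-202 (ENST00000392753.7, chr2:160272152-160367526, minus strand, 3781 bases) took 90.6% to 97.4% of the RBMS1 reads on average in each group. RBMS1-209, a processed transcript, took 5.90 ± 2.81% at 90 min, 0% at 180 min and 8.1 ± 1.65% at 360 min in RBMS3 cells, and 1.70 ± 2.94% in LacZ cells at 0 min. It ends within 1 base of RBMS1-202, so 3′ reads hardly separate the 2. RBMS1-210 (414 bases) and RBMS1-207 (386 bases) took at most 2.92% and 0.68% of the RBMS1 reads, but more of its TPM. In LacZ replicate 3 they held 5.65 and 2.97 of 25.5 TPM, on 17.8 and 7.75 reads. In LacZ replicate 1 they held 0 and 1.70 of 18.5 TPM. RBMS1-210 held 8.29 of 32.6 TPM in replicate 2 of RBMS3 cells at 90 min. The part of these short transcripts in the normalized counts was not tested. RBMS2-201 (chr12:56521929-56596196, plus strand) took nearly all RBMS2 reads, with at most 0.87% on any other. Its 3′ end overlaps BAZ2A, a chromatin remodelling gene on the opposite strand, over 601 bases, and whether the counting used strand is not stated in the sources used here. RBMS2 values are therefore uncertain to that extent. BAZ2A itself, named here for its position, was -0.97 ± 0.25 in RBMS3 cells against LacZ cells at 0 min (limma adjusted p = 0.0046). At 360 min against 0 min the change of BAZ2A in RBMS3 cells was 0.33 ± 0.25 and that in LacZ cells -0.47 ± 0.25, neither of which passed.

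RBMS3 reads were mostly coding in RBMS3 cells and of mixed make-up in LacZ cells. RBMS3-205 (ENST00000434693.6, chr3:29280982-30010391, plus strand, 8540 bases, of which 6529 are 3′ untranslated) had the most reads over the 12 libraries. In the LacZ libraries it took 83.3%, 41.6% and 0% of the RBMS3 reads, so that it led in replicate 1 only. Protein-coding transcripts together held 33.1 ± 2.99, 32.7 ± 0.82 and 31.9 ± 1.75 CPM in RBMS3 cells at 90, 180 and 360 min, and 7.29 ± 2.01 in LacZ cells at 0 min (SD, n = 3). They made up 94.7%, 98.5% and 97.5% of the RBMS3 reads in RBMS3 cells, and 93.4%, 41.6% and 69% in the 3 LacZ libraries. The remainder in LacZ cells was mostly RBMS3-219, a non-coding transcript whose annotated end lies 28491 bases before the start of RBMS3-205. It was at 0.541 to 7.58 CPM in LacZ cells at 0 min and at 0 to 3.23 in RBMS3 cells at the 3 later times. Line and time differ together in this comparison and cannot be told apart. RBMS3-202 and RBMS3-203, other coding forms, reached 19.6% and 49.4% of the RBMS3 reads in LacZ replicate 3, on 66.7 reads for the whole gene. RBMS3-202 also took up to 12.7% in RBMS3 cells.

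The reads of RBMS3 cells were assigned mostly to the transcript with the long annotated 3′ untranslated region. The labels do not state how the introduced sequence ends, and its part in these reads was not tested.

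**Figure D5:**
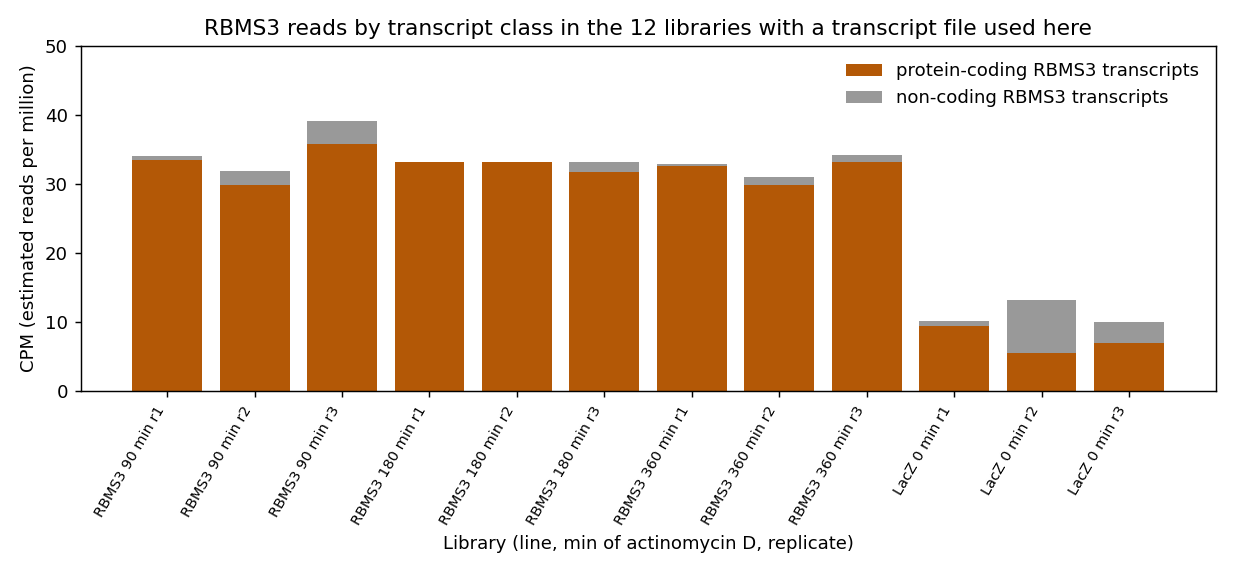
CPM of protein-coding (orange) and non-coding (grey) RBMS3 transcripts, stacked, in each of the 12 libraries. The 9 RBMS3 libraries hold 29.9 to 35.8 CPM of coding transcripts, the 3 LacZ libraries 5.52 to 9.47, and non-coding transcripts reach 7.73 in LacZ replicate 2, the library that stands apart.

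Other rows named for the family were near the floor. The pseudogenes RBMS1P1 and RBMS2P1 and the antisense RNA RBMS3-AS1 were at 0 in all 24 libraries, and RBMS3-AS2 was at 3.04 in 1 of them. RBMS3-AS3, an antisense RNA across the start of RBMS3-205 (chr3:29264194-29290726, minus strand), was 4.39 to 26.9 in RBMS3 cells and 10.9 to 37.4 in LacZ cells. Averaged over times its line difference was -0.25 ± 0.28 (limma adjusted p = 0.464), on a transcript that does not reach the 3′ end of RBMS3.

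The genes most like each member were ranked by Pearson r of log2(normalized count + 1) over the 24 libraries, which share the 2 lines. They were THBS3 (0.88), LMCD1, NORAD, HPF1 and NLRP1 (0.83) for RBMS1, TCP1 (0.89), DDRGK1, TOMM5, MYADM and UQCRB (0.85) for RBMS2, and PCDH9 (0.89), METTL7A, GPM6B, SCCPDH and UPF3A (0.87) for RBMS3. THBS3, a thrombospondin, averaged 23.3 in RBMS3 cells and 2.82 in LacZ cells, and PCDH9, a protocadherin, averaged 55.3 in RBMS3 cells and 11.1 in LacZ cells. TCP1, a chaperonin subunit, averaged 2235 in RBMS3 cells and 2765 in LacZ cells. With each line's mean subtracted, THBS3 (0.74), MAFG, C18orf21, NLRP1 and USP38 led for RBMS1, ABRACL (0.87), TCP1, DDRGK1, UBE2D3 and PHB2 for RBMS2, and PCDH9 (0.76), BTN2A3P, UCKL1-AS1, CENATAC and H2BC5 for RBMS3. The members were not among each other's nearest genes. RBMS1 and RBMS3 had r = 0.62 over all libraries but 0.09 with line means subtracted, and RBMS2 had r = -0.46 with each of the others and -0.22 with RBMS1 and -0.15 with RBMS3 after subtraction. These are descriptions of these libraries.

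Other RNA-binding proteins that act on AU-rich or other 3′ elements form the wider class of the family. Of 42 listed, 36 were tested, and averaged over times 6 were higher, 15 lower and 15 not called in RBMS3 cells, with a median difference of -0.09 against -0.02 over all genes. Those are 16.7% higher and 41.7% lower, beside 27.9% and 29.7% of all genes. On the ribosomal protein scale these counts were 3 higher and 23 lower. ELAVL2, a neuronal-type member of the Hu family, fell most, with means of 16.6 in RBMS3 cells and 212 in LacZ cells (-3.82 ± 0.16, limma adjusted p = 9.96e-15). IGF2BP1, which shields mRNAs from decay, averaged 80.6 in RBMS3 cells and 337 in LacZ cells (-2.26 ± 0.23, limma adjusted p = 4.08e-08). PUM2 (-0.99), IGF2BP3 (-0.90) and RC3H1 (-0.72), which codes for the decay factor Roquin, also fell. TIA1 (0.89), MEX3A (0.71), QKI (0.42), HNRNPDL (0.37) and ZFP36L1 (0.29) rose in this average. Before the drug TIA1 was at -0.14 ± 0.38 (limma adjusted p = 0.818). For the slope, 2 of 36 differed between the lines, 1 in each direction, a share near the 5.18% of all genes called. The lower of them was HNRNPDL at -0.09 ± 0.02 per hour (limma adjusted p = 0.0142). The count ranged from 1 to 4 with 1 library left out, and was 4 without LacZ replicate 1 or replicate 2 at 0 min. The RBMS1 difference of 0.60 lay within the range of this class, and that of RBMS3 at 1.46 was larger than each rise named here.

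Of 8 transcripts reported elsewhere to be bound or regulated by an RBMS protein, all were tested, and averaged over times 2 were higher, 4 lower and 2 not called in RBMS3 cells, with a median of -0.40 against -0.02 over all genes. On so few genes that is 25% higher and 50% lower, beside 27.9% and 29.7% of all genes. PRRX1, a transcription factor of mesenchymal cells and the target named in the series title, was at 499 on average in RBMS3 cells and 0.553 in LacZ cells, where 11 of 12 libraries were at 0. SMAD2, a TGF-beta signal transducer, averaged 607 in RBMS3 cells and 411 in LacZ cells (0.56 ± 0.11, limma adjusted p = 0.000204). At 0 min SMAD2 was at -0.24 ± 0.22 (limma adjusted p = 0.439) and at 360 min at 0.87 ± 0.22 (adjusted p = 0.00413). CDKN1A, the cell cycle inhibitor p21, averaged 205 in RBMS3 cells and 835 in LacZ cells (-2.04 ± 0.07, limma adjusted p = 1.52e-16). SLC7A11, a cystine transporter (-0.65), B4GALT1, a galactosyltransferase (-0.61), and AKAP12, a kinase anchor (-0.44), were lower as well in this average. At 0 min B4GALT1 was at 0.11 ± 0.10 (limma adjusted p = 0.469). Its LacZ libraries were then at 1277, 904 and 1316, with the 904 in replicate 2, the library that stands apart. Its RBMS3 libraries were at 1323, 1201 and 1191. MYC was at -0.36 ± 0.47 and SDCBP at -0.16 ± 0.21, and neither passed.

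In slope, 2 of these 8 differed between the lines (1 to 3 with 1 library left out, and 3 without LacZ replicate 2 at 0 min). SLC7A11 had a slope of 0.22 ± 0.03 log2 per hour in RBMS3 cells and 0.08 ± 0.03 in LacZ cells, a difference of 0.14 ± 0.04 (limma adjusted p = 0.0345). B4GALT1 had a slope of -0.05 ± 0.02 per hour in RBMS3 cells and 0.07 ± 0.02 in LacZ cells, a difference of -0.12 ± 0.02 (limma adjusted p = 0.00275). Neither changed evenly with time in RBMS3 cells. SLC7A11 averaged 170, 447, 445 and 513 there at 0, 90, 180 and 360 min, and B4GALT1 1238, 836, 838 and 909. The 0 min libraries of RBMS3 cells are those with the high KRT14 given above, and their part in these slopes was not tested. PRRX1 had a slope difference of 0.16 ± 0.11 per hour (limma adjusted p = 0.479), with 11 of the 12 LacZ libraries at 0. The share of 2 in 8 stands beside 5.18% of all genes, on a list chosen with results of these data known.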

How the data were processed

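DESeq2 1.32.0, Salmon 1.4.0 and Trim Galore 0.6.6 are listed in the submitters' processing notes. No label or header states the genome build, the annotation or the strand setting. The authors deposited a table of normalized counts (a signal scaled between libraries, not whole reads) for 24 libraries, and also, per the file headers, TPM values and estimated counts of 231288 transcripts in each library. For 12 libraries the name of the transcript file and the sample it is recorded under disagree, and those files were not used. The other 12 held 4426445 to 9856338 estimated reads, of which 95.2% to 95.7% matched GENCODE 29 by identifier. GENCODE 29 (GRCh38) gave coordinates and sequences. The authors' annotation has some other transcript versions: RBMS2-201 has 8488 bases in the files and 8382 in GENCODE 29.

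Groups follow the labels. Differences on the log2(normalized count + 1) scale were fitted over all 8 groups by limma 3.58.1, run in R 4.3.3 with a variance trend and no robust option, for genes with a mean of at least 10, with Benjamini-Hochberg adjustment over 12096 genes. Fold changes on this scale understate changes of low genes. Estimated counts, summed per gene and rounded, were tested with edgeR 4.0.16 (TMM, quasi-likelihood) and DESeq2 1.42.0 for RBMS3 cells at 180 and 360 min against 90 min. The code was tested on simulated data. Alternatives were another pseudocount, filter, scaling, prior variance, set of samples or source of values, the replicate block, and leaving out each library. Named genes are the members, rows named for them, PRRX1, the 5 genes most like each member, the list members that passed with the largest differences (up to 5 per direction, and 3 per direction for slopes), and transcripts with at least 5% of a member's reads. BAZ2A was added for its position. Some listed genes that the rule would name are not reported here. Members and lists were chosen with earlier results of these data known. Counting error sets a limit on low values such as RBMS3 in LacZ cells (66.7 to 84.1 estimated reads at 0 min).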

Additional observations from a re-analysis of the deposited data

Results flagged for a closer look

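No RBMS member was flagged. In 3 of the listed genes reported here the slope under actinomycin D differed between RBMS3 and LacZ cells by limma's test of that difference: HNRNPDL by -0.0893 log2 per hour, B4GALT1 by -0.1247 and SLC7A11 by 0.1353. HNRNPDL, a splicing factor, was at -0.11 ± 0.01 per hour in RBMS3 cells and -0.03 ± 0.01 in LacZ cells. In RBMS3 cells it averaged 4616, 2939, 2634 and 2655 at 0, 90, 180 and 360 min, so that most of its fall came by 90 min. The part of the RBMS3 libraries at 0 min in these 3 slope differences was not tested.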

How the results depend on the processing

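Over 13 settings other than leaving out 1 library, 336 of 366 values kept direction and side of the threshold (counts within 1.5 times). Equalising ribosomal protein transcripts moved the median of all genes by -0.36 in the line difference at 0 min and turned the split of calls there to 1221 higher and 4110 lower, against 2250 and 2284. Under it RBMS1 differed by 0.38, 0.56 and 0.52 at 0, 180 and 360 min and RBMS3 by 0.89 at 360 min, none called. RBMS2 at 90 min became called (-0.49), as did the RBMS1 changes at 360 min (-0.75 in RBMS3 cells, -0.90 in LacZ cells). Turned in direction under it, uncalled, were RBMS1 at 180 against 90 min (-0.0892), RBMS2 (-0.0693) and RBMS3 (-0.44) at 360 against 90 min in RBMS3 cells, and RBMS2 (-0.0631) and RBMS3 (-0.53) at 360 min in LacZ cells. Binders called were then 3 higher, 23 lower and 4 in slope. TMM gave 4 in slope, and no filter or trend off gave 1 each, as for targets (1 and 1). Estimated counts gave RBMS1 at 180 against 90 min as -0.10 (edgeR, also unfiltered, -0.10, and DESeq2, -0.10), the reverse of the table's 0.11, and at 360 min as -0.23 (edgeR), -0.23 (unfiltered) and -0.23 (DESeq2), called. Without the other groups, RBMS1 (0.74) and RBMS2 (-0.53) at 0 min and RBMS2 in LacZ cells (0.49) were not called. Without a filter RBMS3 at 360 min (1.09) was not called. The cause of these changes was not tested.

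Leaving out 1 library at a time, RBMS1 differed by 0.52 to 0.96 at 0 min, 0.56 to 0.85 at 180 min and 0.55 to 0.91 at 360 min, RBMS2 by -0.66 to -0.46 at 0 min and -0.60 to -0.30 at 90 min, and RBMS3 by 0.89 to 1.47 at 360 min. RBMS2 at 360 min in LacZ cells ranged from 0.41 to 0.56 and RBMS3 there from -0.35 to 0.23. At 360 against 90 min RBMS1 ranged from -0.30 to 0.0603 and RBMS3 from -0.11 to 0.11. Slope differences ranged from -0.0046 to 0.0569 for RBMS1 and from -0.0924 to 0.0069 for RBMS3, and slope calls from 1 to 4 binders and 1 to 3 targets. The averaged line differences of all 3 members stayed called without any 1 library.

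Whether replicate numbers pair the libraries is not stated in the labels, and the values do not settle it. Deviations of same-numbered libraries of the lines correlated at only -0.0186 to 0.0552. Still, 12 of 24 libraries correlated best with their own number, more than the 1 in 3 that no pairing would give. With the replicate block the averaged differences were 1.46, 0.60 and -0.32 for RBMS3, RBMS1 and RBMS2, no call of a member changed, and 6978 genes were called against 6970.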
